A study of Homo sapiens with 6 samples.

Results

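Integrins, laminins, collagens and the glycoproteins that join them to the cell were followed as a set of 34 genes in TCam-2, a human cell line derived from a testicular seminoma. The genes were chosen by name with earlier results of these data known, and each symbol was matched to its Ensembl identifier. They were 9 integrin alpha subunits, 5 integrin beta subunits, 8 laminin chains, 8 collagen chains and 4 adhesive or matricellular glycoproteins. All 34 were found among the 62700 genes of the deposited table, and 30 of them were among the 14292 genes with enough reads to test. RNA-seq libraries came from 3 groups of 2. WT cells were not transduced, GFP cells were transduced with FLAG-tagged GFP, and RBMXL3 cells were transduced with FLAG-tagged RBMXL3. RBMXL3 is related to the RNA-binding protein RBMX. All 3 groups share the TCam-2 background, and the study used both WT and GFP as negative controls for genes that differ in expression or splicing under RBMXL3. The promoter of the transgenes, the time after transduction and whether the transduced cells were a pool or 1 clone are not given in the sources used here. The labels also do not say that the 2 libraries of a group came from separate cultures, so p-values measure only the spread between these libraries.

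Integrins are receptors made of an alpha and a beta subunit that hold cells to the extracellular matrix and pass signals across the membrane. The alpha subunit largely sets the ligand, and most alpha subunits listed here pair with ITGB1. Laminins are trimers of an alpha, a beta and a gamma chain, and together with type IV collagen they build basement membranes. Fibrillar collagens of types I, III and V form the fibrils of interstitial matrix, and type VI collagen forms beaded filaments close to cells. In the testis a basement membrane surrounds the seminiferous tubules, and integrins that hold ITGB1 are known from mouse work for the migration of primordial germ cells.

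Recovered depth was 28604436 to 29318007 reads in WT, 23080795 to 26776703 in GFP and 17685680 to 21023355 in RBMXL3, so the RBMXL3 libraries were the shallowest. Mitochondrial genes took 1.31% of reads in GFP replicate 1 and 2.02% to 3.02% in the other 5 libraries. The RBMXL3 gene had 84 and 68 reads in the libraries transduced with it and 0 in each of the 4 controls, where up to 3 reads remain possible. All 9 seminoma markers were detected in every library, from 86.9 to 153 normalised reads for NANOS3 up to 27459.6 to 41233 for POU5F1. Of the 9, NANOS3 was called higher and KIT and LIN28A lower in RBMXL3 than in both controls by limma. A normalised read count is the deposited value, which is the read number over the size factor of its library. Among fibroblast markers, which bear on matrix genes, PRRX1 had 0 reads in all 6 libraries, FAP at most 1 and DCN at most 2, while LUM, also listed below as a matrix gene, rose. Leukocyte PTPRC and CD3E and Leydig cell STAR and INSL3 had at most 1 read in any library. The summed level of the 8 fibroblast markers was 831 to 944 in WT, 1213 to 1247 in GFP and 1293 to 1396 in RBMXL3 normalised reads. Without LUM it was 766 to 864 in WT, 1034 to 1115 in GFP and 872 to 971 in RBMXL3, so the 7 other markers together were lower in RBMXL3 than in GFP and higher than in WT. The labels name no batch, so a difference in preparation cannot be told apart from the groups.

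The called changes ran in different directions in different kinds of gene: 4 collagen genes rose against both controls and none fell, while both abundant integrin beta subunits fell. A gene was called at a limma adjusted p under 0.05, with the adjustment over all 14292 genes. Against GFP, 8 of the 30 tested members were higher in RBMXL3 and 5 were lower, which is 43.3% of those tested, beside 20.9% of all genes (10.5% higher and 10.4% lower). Against WT, 10 were higher and 7 lower, or 56.7%, beside 29.9% of all genes (14.6% and 15.3%). The median log2 change of the 30 was -0.0021 against GFP and 0.13 against WT, beside 0.00087 and -0.014 over all genes, so rises and falls nearly cancelled. In the same direction against both controls 11 members were called, 6 higher and 5 lower, or 36.7% beside 13.7% of all genes (6.88% and 6.86%). Among all 10744 genes with a mean of at least 5 on the scale of CPM, the share was 15.7%. Both RBMXL3 libraries lay outside all 4 control libraries for 18 of the 30, 10 above and 8 below, or 60% beside 46.1% of all genes (22.5% and 23.6%). The comparisons with GFP and with WT share the RBMXL3 libraries, so they are not independent. The split of calls depended on the scaling. After quantile normalization 10 members were higher and 3 lower against GFP, with 8 and 3 against both controls. On summed TPM, where fewer genes were called at all, 5 were higher and 0 lower against GFP, 5 and 1 against WT, and 4 and 0 against both. The 5 members called lower against both controls (ITGA1, ITGB1, ITGB5, LAMA4 and SPARC) thus all lost their call against GFP there. Of these only LAMA4 kept its call against WT. In bulk RNA, fewer cells that express a gene and less of its RNA per cell cannot be told apart.

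**Figure D1:**
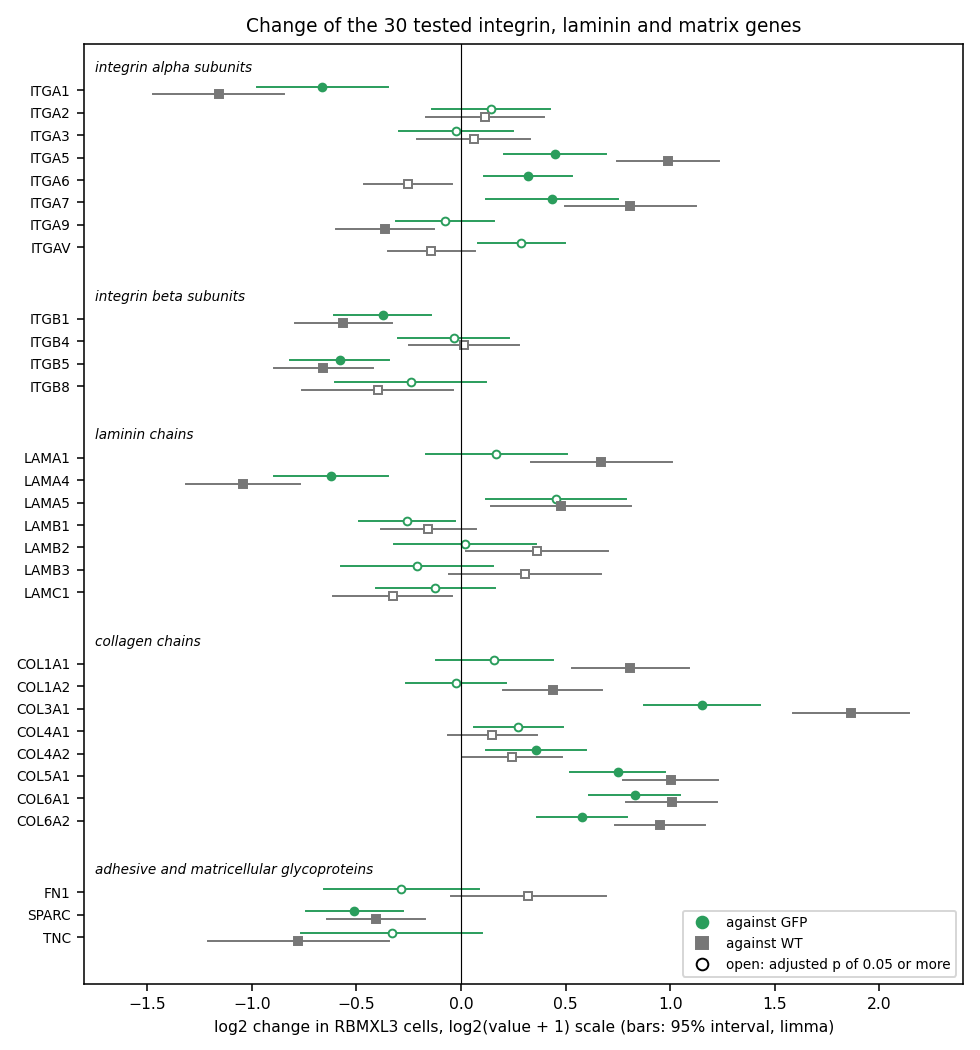
The x axis is the log2 change in RBMXL3 cells on the log2(value + 1) scale and the y axis lists the 30 tested genes by role. Circles are the comparison with GFP and squares that with WT, bars are 95% intervals from limma, and open symbols have an adjusted p of 0.05 or more. Among the collagens no filled symbol lies left of 0, and among the beta subunits none lies right of it.

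Collagen chains gave the most calls. Of 8 genes, 5 rose and 0 fell against GFP, 6 rose and 0 fell against WT, and 4 rose against both, with median log2 changes of 0.47 and 0.88. DESeq2 and edgeR on the recovered reads likewise called 0 falls among them in either comparison, and 0 were lower at an unadjusted p under 0.05. COL3A1, the chain of fibrillar type III collagen (chr2:188974320-189012746, GRCh38 in GENCODE 29), changed more than any other member. Its normalised read counts were 114 and 124 (WT), 207 and 214 (GFP) and 503 and 489.8 (RBMXL3). The groups did not overlap, and GFP stood between WT and RBMXL3. The log2 change was 1.15 ± 0.13 (SE) against GFP and 1.86 ± 0.13 against WT, with limma adjusted p = 0.000281 and 3.07e-06. COL5A1, a type V chain that controls the width of collagen fibrils, had 669 and 607 (WT), 755 and 771 (GFP) and 1335 and 1264 (RBMXL3) normalised reads. Both RBMXL3 libraries were above all 4 controls, which lay close together. COL5A1 rose by 0.75 ± 0.11 against GFP (limma adjusted p = 0.000837) and by 1.00 ± 0.11 against WT (adjusted p = 6.88e-05).

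The paired type VI chains rose as well. COL6A1 (chr21:45981737-46005050) had 1727 and 1640.1 (WT), 2008 and 1809 (GFP) and 3256 and 3562 (RBMXL3) normalised reads. COL6A2, its neighbour on the same chromosome (chr21:46098097-46132849), had 1534 and 1567 (WT), 2158 and 1885 (GFP) and 2993 and 3051 (RBMXL3). In both genes the lower RBMXL3 library exceeded the highest control. COL6A1 rose by 0.83 ± 0.10 against GFP and 1.01 ± 0.10 against WT (limma adjusted p = 0.00044 and 4.99e-05). COL6A2 rose by 0.58 ± 0.10 and 0.95 ± 0.10 (adjusted p = 0.0024 and 6.8e-05). The calls of COL3A1, COL5A1 and COL6A2 held in all 15 other settings tried, among them each library left out in turn. Those of COL6A1 were lost on summed TPM, with log2 changes of 0.61 and 0.58 and adjusted p = 0.0888 and 0.0864.

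Type I and type IV chains behaved differently from these. COL1A1, a chain of the main fibrillar collagen, had 206 and 235 (WT), 384 and 335 (GFP) and 399 and 407 (RBMXL3) normalised reads. It rose by 0.81 ± 0.13 against WT (limma adjusted p = 0.000883), and against GFP its change was 0.16 ± 0.13 (adjusted p = 0.413). COL1A2, its partner chain, had 8093 and 9275 (WT), 12709 and 11241 (GFP) and 11331 and 12167 (RBMXL3). GFP and RBMXL3 overlapped and WT lay below both. COL1A2 was higher than WT by 0.44 ± 0.11 (adjusted p = 0.0109), while against GFP the change was -0.026 ± 0.11 with a 95% interval of -0.26 to 0.21. The call against WT was lost without WT replicate 1 (adjusted p = 0.121), RBMXL3 replicate 1 (0.0697) or RBMXL3 replicate 2 (0.158), and the change was only 0.027 on summed TPM. COL4A1, a basement membrane chain, had 12433 and 11554 (WT), 11018 and 10975 (GFP) and 13107 and 13486 (RBMXL3) and was not called by limma. COL4A2, with which it forms the type IV trimer, had 19443 and 16923 (WT), 17358 and 16252 (GFP) and 21242 and 21792 (RBMXL3). For both chains the RBMXL3 libraries were above all controls by a small margin. COL4A2 was called against GFP (0.36 ± 0.11, limma adjusted p = 0.0369) and not against WT (0.25 ± 0.11, adjusted p = 0.11). That call was lost without RBMXL3 replicate 1 (adjusted p = 0.227), without RBMXL3 replicate 2 (0.294) and with the replicate block (0.0616). For COL4A1 the 95% intervals ran from 0.06 to 0.49 against GFP and from -0.064 to 0.36 against WT. COL4A1 was called against GFP by DESeq2 (0.28, adjusted p = 0.0362) and by limma without GFP replicate 1 (0.28, 0.0341) or GFP replicate 2 (0.27, 0.0302). After quantile normalization it was called against GFP and WT (0.43 and 0.30, limma adjusted p = 0.00639 and 0.0234).

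**Figure D2:**
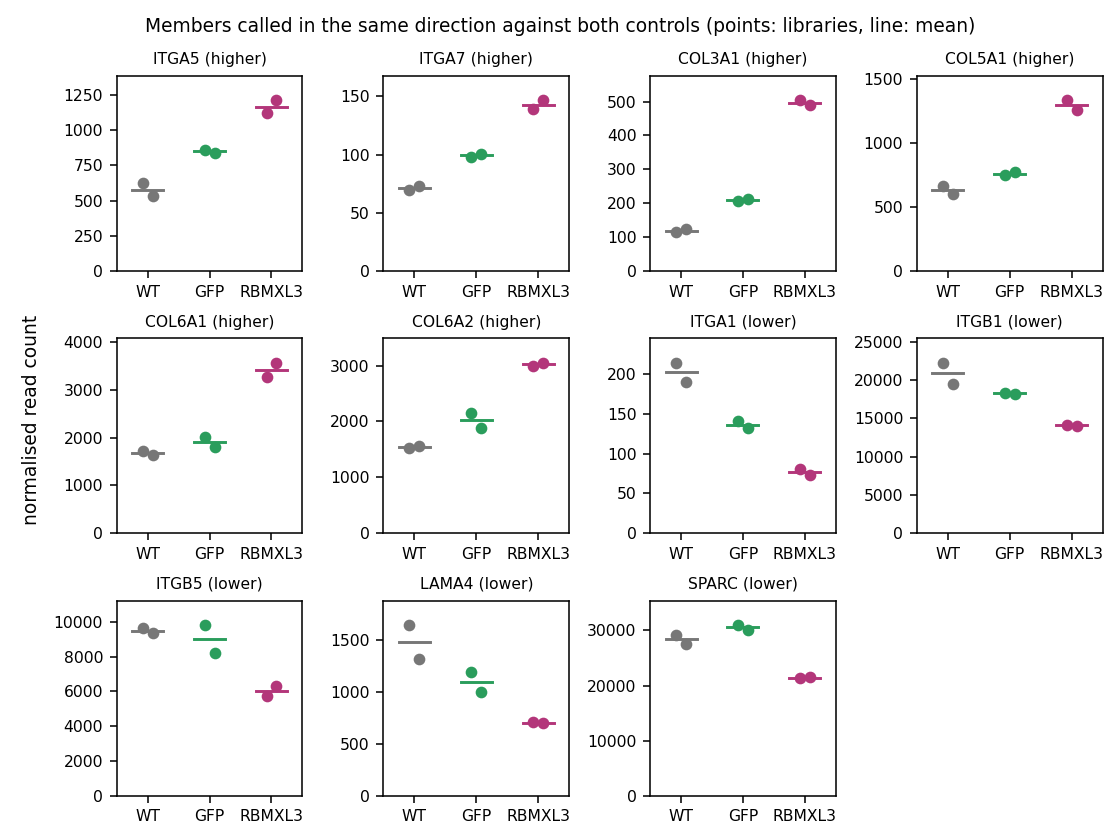
Normalised read counts (y axis, from 0) of the 11 members called in the same direction against both controls, 1 panel each, with the 3 groups on the x axis. Points are libraries and lines are means of 2. The RBMXL3 points lie outside the 4 control points in every panel.

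COL4A1 and COL4A2 lie head to head on chromosome 13 and are transcribed away from each other from a short shared stretch. It is shown because the chains are made together and both RBMXL3 libraries were highest for each. The 126 bases between the RefSeq starts (chr13:110307158-110307283, GRCh38.p14, given on the plus strand, the strand of COL4A2) hold a CCAAT box and a GC box, in capitals, the first letter of each at positions 22 and 62 counted from the 5′ end.
COL4A1 to COL4A2: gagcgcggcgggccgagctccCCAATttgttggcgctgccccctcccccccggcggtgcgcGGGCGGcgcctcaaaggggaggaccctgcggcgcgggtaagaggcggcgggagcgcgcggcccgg

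Integrin alpha subunits moved both ways. Of the 8 tested, 3 were higher and 1 lower against GFP, 2 higher and 2 lower against WT, and 2 higher and 1 lower against both. ITGA5, the alpha subunit of the fibronectin receptor (chr12:54395261-54419460), had 625 and 531 (WT), 861 and 836 (GFP) and 1124 and 1210.5 (RBMXL3) normalised reads. The 3 groups did not overlap, with WT lowest. ITGA5 rose by 0.45 ± 0.11 against GFP (limma adjusted p = 0.0153) and by 0.99 ± 0.11 against WT (0.000114). Its call against GFP was lost without RBMXL3 replicate 1 (adjusted p = 0.0901) and without RBMXL3 replicate 2 (0.196), where the lone library was assumed to vary like the other groups. ITGA7, a laminin receptor subunit best known from muscle, had 69.4 and 73 (WT), 98 and 101 (GFP) and 139 and 146 (RBMXL3). It rose by 0.81 ± 0.15 against WT (adjusted p = 0.00172). Against GFP the change was 0.44 ± 0.15 with adjusted p = 0.0498, and this call was kept in 0 of 15 other settings, with adjusted p from 0.0588 to 0.298 in the 14 that tested the gene. The exons of ITGA7 also overlap those of METTL7B on the opposite strand, whose reads were 110% of those of ITGA7, and of BLOC1S1, at 45.4%. Whether the counting used strand is not given in the sources used here.

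ITGA6, a laminin receptor subunit, was the most abundant alpha subunit. Its normalised reads were 10152 and 9711 (WT), 6373 and 6964 (GFP) and 8388 and 8257 (RBMXL3). RBMXL3 stood between GFP, the lowest, and WT, the highest. ITGA6 was therefore higher than GFP by 0.32 ± 0.10 (limma adjusted p = 0.035) while its change against WT was -0.25 ± 0.10 (adjusted p = 0.0657). The call against GFP was lost in 7 of 15 other settings, among them the replicate block (adjusted p = 0.0661) and leaving out WT replicate 1 (0.0528), WT replicate 2 (0.0525), RBMXL3 replicate 1 (0.279) or RBMXL3 replicate 2 (0.257). ITGAV, which pairs with several beta subunits to bind vitronectin and fibronectin, had the same order, with 2279 and 2471 (WT), 1757 and 1756 (GFP) and 2081 and 2221 (RBMXL3). Its change was 0.29 ± 0.10 against GFP (adjusted p = 0.0503) and -0.14 ± 0.10 against WT (adjusted p = 0.285).

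ITGA1, a collagen and laminin receptor subunit (chr5:52787896-52959210), had 214 and 190.4 (WT), 140.5 and 132 (GFP) and 81.1 and 73.8 (RBMXL3) normalised reads. The groups fell in the order WT, GFP, RBMXL3 without overlap. ITGA1 fell by 0.66 ± 0.14 against GFP and by 1.16 ± 0.14 against WT (limma adjusted p = 0.00776 and 0.000207). Without RBMXL3 replicate 2 the call against GFP was lost (adjusted p = 0.0974). The value is uncertain for another reason: PELO lies inside ITGA1 on the same strand and shares exon bases with it, with 506% of its reads. The ITGA1 transcript that reached 1 TPM, ITGA1-206, is annotated as a processed transcript without a coding sequence. ITGA9, which binds tenascin-C and osteopontin, had 4030.2 and 3835 (WT), 3548 and 2925 (GFP) and 3153 and 2957 (RBMXL3). It was lower than WT by -0.36 ± 0.11 (adjusted p = 0.0246), a call lost when either WT or either RBMXL3 library was left out (adjusted p from 0.0765 to 0.23). ITGA2 (284 to 363 normalised reads) and ITGA3 (803 to 1022) were not called in any comparison. ITGA4 had at most 1 read in any library, and none in both GFP libraries, and was not tested.

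Integrin beta subunits changed in 1 direction only where they were called: 2 of the 4 tested fell against each control and 0 rose by limma. At an unadjusted p under 0.05 limma had 0 higher as well, and so did the calls of edgeR and DESeq2 on recovered reads. ITGB1, the shared beta subunit of most of the receptors above (chr10:32900319-33005792), had 22240.4 and 19438 (WT), 18296 and 18190.1 (GFP) and 14130.2 and 14019 (RBMXL3) normalised reads. Both RBMXL3 libraries were below all 4 controls. ITGB1 fell, with changes of -0.37 ± 0.11 against GFP and -0.56 ± 0.11 against WT (limma adjusted p = 0.0274 and 0.00242). The call against GFP was lost without RBMXL3 replicate 1 (adjusted p = 0.219), without RBMXL3 replicate 2 (0.246) and after quantile normalization, where the change was -0.15 (adjusted p = 0.255). The call against WT was lost without RBMXL3 replicate 2 (0.0521). ITGB5, which pairs with ITGAV to bind vitronectin, had 9632 and 9343 (WT), 9818 and 8233 (GFP) and 5742 and 6280.2 (RBMXL3). Its RBMXL3 libraries were again below every control. The log2 change was -0.58 ± 0.11 against GFP and -0.66 ± 0.11 against WT (adjusted p = 0.00356 and 0.00109). Without RBMXL3 replicate 1 the adjusted p against GFP was 0.0774. On summed TPM both calls of ITGB5 were lost (limma adjusted p = 0.19 against GFP and 0.0969 against WT). ITGB4, the partner of ITGA6 in hemidesmosomes, had 831 to 1066 normalised reads over all libraries. Its change against GFP was -0.035 ± 0.12 with a 95% interval of -0.30 to 0.23. ITGB8, an ITGAV partner that binds latent TGF-beta, had 40.3 to 55.4 in the controls and 32.1 to 32.2 in RBMXL3 and was not called. ITGB3 was too low to test, at 7.72 to 21.4.

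Laminin chains gave fewer calls than collagen chains. Of 7 tested, 0 were higher and 1 was lower against GFP, or 14.3% beside 20.9% of all genes. Against WT 2 were higher and 1 lower, or 42.9% beside 29.9% of all genes. At an unadjusted p under 0.05 the counts against GFP were 1 higher and 2 lower, and DESeq2 called 1 and 1. LAMA4, the alpha chain of a laminin typical of vessel walls (chr6:112108760-112254939), had 1645 and 1315 (WT), 1195 and 1001 (GFP) and 709 and 696 (RBMXL3) normalised reads. The RBMXL3 libraries were the lowest and WT the highest, without overlap between the groups. Its log2 change was -0.62 ± 0.13 against GFP and -1.04 ± 0.13 against WT (limma adjusted p = 0.00551 and 0.000165). The call against GFP was lost without RBMXL3 replicate 2 (adjusted p = 0.0563). Of 5 endothelial markers TEK was also lower, with 486 and 431 (WT), 431 and 359 (GFP) and 228 and 278 (RBMXL3) normalised reads, while CDH5 was above all controls in both RBMXL3 libraries, with 26.2 and 31 (WT), 29.6 and 25.4 (GFP) and 45.1 and 48.1 (RBMXL3), and PECAM1 had 3 to 7 reads in any library. The sum of the 5 was 650 to 654 in WT, 505 to 655 in GFP and 433 to 510 in RBMXL3, and without TEK 168 to 219, 146 to 225 and 205 to 232. Their part in the LAMA4 values was not tested. LAMA5, the alpha chain of the laminins that support pluripotent cells in culture, had 7282 and 10063 (WT), 9956 and 7631 (GFP) and 11353 and 12570.1 (RBMXL3). Both RBMXL3 libraries were highest, but the control libraries of each group lay far apart. LAMA5 rose against WT by 0.48 ± 0.15 (adjusted p = 0.0338). That call was lost without WT replicate 1, where the change was 0.25 (adjusted p = 0.35), without RBMXL3 replicate 1 (0.0776) and without RBMXL3 replicate 2 (0.204). Against GFP the change was 0.45 ± 0.15 (adjusted p = 0.0541). LAMA5 exons overlap ADRM1 on the opposite strand, whose reads were 52.2% of its own.

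LAMA1, the alpha chain of the laminin of early embryos, had 711 and 869 (WT), 1357 and 928 (GFP) and 1309 and 1221 (RBMXL3) normalised reads. GFP and RBMXL3 overlapped, and WT was lowest. It rose against WT by 0.67 ± 0.16 (limma adjusted p = 0.00736), a call lost without WT replicate 1 (adjusted p = 0.115) or RBMXL3 replicate 1 (0.0503). LAMC1, the gamma chain common to most laminins, was the most highly counted member, with 45309.7 and 44789 (WT), 43944 and 34803 (GFP) and 36404 and 35471 (RBMXL3). GFP replicate 1 was close to WT and GFP replicate 2 close to RBMXL3. Its changes of -0.12 ± 0.13 against GFP and -0.33 ± 0.13 against WT were not called by limma (adjusted p = 0.545 and 0.0777). Without GFP replicate 2 both were called, at -0.29 and -0.33 (adjusted p = 0.0375 and 0.00565), and without GFP replicate 1 the change against WT was called too (adjusted p = 0.00598). The beta chains were not called either: LAMB1 had 8293 to 9896 in the controls and 7560.2 to 7631 in RBMXL3, and LAMB2 overlapped between GFP and the other groups. LAMB3 had 31.3 and 35.2 (WT), 53.6 and 62.5 (GFP) and 42.5 and 51.3 (RBMXL3), with RBMXL3 between WT and GFP and no overlap. LAMB2 depended on the GFP libraries: its change against GFP was called at 0.33 without GFP replicate 1 and at -0.29 without GFP replicate 2 (limma adjusted p = 0.0271 and 0.0374), and against WT it was called higher without either (0.36, adjusted p = 0.00305 and 0.00289). LAMB1 was called lower than GFP without GFP replicate 2 (-0.38, adjusted p = 0.00391). On summed TPM the groups overlapped for LAMB1, at 108 and 96 (WT), 96.8 and 88.4 (GFP) and 95 and 101 (RBMXL3). The coding transcript LAMB1-201 had 63.1 and 65.1 (WT), 53.8 and 54.8 (GFP) and 65.8 and 66.6 (RBMXL3) TPM, above every control in RBMXL3. LAMB1 exons overlap DLD on the opposite strand, which had 33.8% of its reads. LAMA3, a chain of epithelial laminin, was below the level tested, at 13.9 to 24.6 normalised reads.

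Among the glycoproteins, SPARC, a collagen-binding matricellular protein (chr5:151661096-151687165), had 29248 and 27612 (WT), 31002 and 30110.3 (GFP) and 21372 and 21516 (RBMXL3) normalised reads. The RBMXL3 libraries were close to each other and below all controls. The log2 change was -0.51 ± 0.11 against GFP and -0.41 ± 0.11 against WT (limma adjusted p = 0.00653 and 0.0139). Both calls were lost without RBMXL3 replicate 1 (adjusted p = 0.111 and 0.16), without RBMXL3 replicate 2 (0.116 and 0.161) and after quantile normalization, where both changes were -0.24. The call against WT was also lost without WT replicate 1 (0.095). TNC, tenascin-C, had 93.1 and 128 (WT), 94.3 and 57.2 (GFP) and 56.6 and 51.3 (RBMXL3). It was lower than WT by -0.78 ± 0.20 (adjusted p = 0.012), which was lost without WT replicate 2 (0.12) or RBMXL3 replicate 2 (0.0719). FN1, fibronectin, had 4053 and 4860.02 (WT), 8594 and 5342 (GFP) and 5642 and 5466 (RBMXL3). GFP replicate 1, the library with the lowest mitochondrial share, was far above the rest, and the part of that share in the FN1 values was not tested. The changes of FN1 were -0.29 ± 0.17 against GFP and 0.32 ± 0.17 against WT (adjusted p = 0.256 and 0.172), with 95% intervals of -0.66 to 0.084 and -0.049 to 0.69. With GFP replicate 2 left out, FN1 was called lower than GFP at -0.63 (limma adjusted p = 0.00101), and with either GFP library left out it was called higher than WT at 0.32 (0.00883 and 0.00866). VTN, vitronectin, had at most 2.54 normalised reads in any library and was not tested.

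Some of the same genes differed between the controls. Between GFP and WT 6 of 30 members were called, 4 higher and 2 lower, or 20% beside 3.67% of all genes (1.76% and 1.91%), and after quantile normalization 4 and 1. Higher in GFP were ITGA5 (0.54 ± 0.11, limma adjusted p = 0.0274), COL1A1 (0.65 ± 0.13, 0.0243), COL1A2 (0.46 ± 0.11, 0.0418) and COL3A1 (0.71 ± 0.13, 0.0163). Lower were ITGA6 (-0.57 ± 0.10, 0.0147) and ITGAV (-0.43 ± 0.10, 0.0364). Every one of these 6 calls was lost when either WT library was left out, with 0 members called in each case, and on summed TPM. Leaving out GFP replicate 2 gave 10 calls and GFP replicate 1 gave 9. Leaving out RBMXL3 replicate 1 gave 3 and RBMXL3 replicate 2 gave 2, through the shared estimate of the spread. With the replicate block 3 members were called. ITGA5 and COL3A1 were higher in GFP than in WT and higher again in RBMXL3 than in GFP, in comparisons that share the GFP libraries. For COL1A1 and COL1A2, the GFP and RBMXL3 levels were both above WT and the RBMXL3 cells were not called against GFP. By role, laminins, beta subunits and glycoproteins had 0 calls between the controls by limma. At an unadjusted p under 0.05 limma had 3 higher and 1 lower laminins, 0 beta subunits, and 1 higher and 1 lower glycoprotein, and DESeq2 called 1 laminin while edgeR called 0 in these roles.

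Levels can be compared between genes only per length, and for that the summed salmon TPM of all transcripts of a gene was used. SPARC was the most abundant member, at 1171 ± 30.5 TPM in WT, 1237 ± 165 in GFP and 1016 ± 43.1 in RBMXL3 (mean ± SD, n = 2). LAMC1 and ITGB1 followed, at 489.6 ± 72.5 and 387 ± 8.32 TPM in WT, LAMC1 being the higher in both WT libraries on summed TPM. Next came COL4A2 (213 ± 12.4), ITGB5 (207 ± 6.57), COL1A2 (169 ± 0.135), COL4A1 (155 ± 2.43) and ITGA6 (120.1 ± 0.889), of which COL4A2 and ITGB5 were within their spread of each other. Over coding transcripts ITGB1 was instead above LAMC1 in every library, and ITGB5 (195 and 197 in WT) was above COL4A2 (133 and 120). ITGA6 (114 and 111) was then above COL4A1 (94.1 and 87.9) and COL1A2 (77.6 and 100.2). Laminin chains LAMB1 (102 ± 8.24) and LAMA5 (94.9 ± 30.4) were also indistinguishable in WT on summed TPM. Over coding transcripts LAMB1 (63.2 and 65.3) was above LAMA5 (37.2 and 55.1) in WT. The collagen genes that rose most were far lower in WT: COL6A1 (36.2 ± 3.03), COL6A2 (31.9 ± 1.82), COL5A1 (4.83 ± 0.0885) and COL3A1 (1.37 ± 0.0925). They reached 54.5 ± 3.49, 60.9 ± 1.34, 10.2 ± 0.348 and 5.94 ± 0.00392 TPM in RBMXL3. ITGA4, ITGB3, ITGB8, LAMA3, LAMB3, VTN and TNC had a mean under 1 TPM in every group.

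Summed over roles, the 8 collagen chains took 0.0564% to 0.0632% of all TPM in the controls and 0.0661% to 0.0705% in RBMXL3. The 5 beta subunits took 0.0486% to 0.0621% and 0.0436% to 0.0468%. Collagen was thus above, and the beta subunits below, every control library, each by less than the range of the controls. Among transcripts annotated as protein coding, the ratio of ITGB1 to all alpha members was 2.07 and 2.02 (WT), 2.62 and 2.46 (GFP) and 1.66 and 1.68 (RBMXL3). It was lowest in the RBMXL3 libraries. LAMA4 made up 29.7% and 17.8% (WT), 20.5% and 22% (GFP) and 10.7% and 11% (RBMXL3) of the laminin alpha TPM of coding transcripts. LAMA5 made up 64% and 75.7% (WT), 70.2% and 69.3% (GFP) and 79.4% and 79.9% (RBMXL3). The alpha chain share of LAMA4 was lowest and that of LAMA5 highest in RBMXL3, with GFP and WT overlapping.

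**Figure D3:**
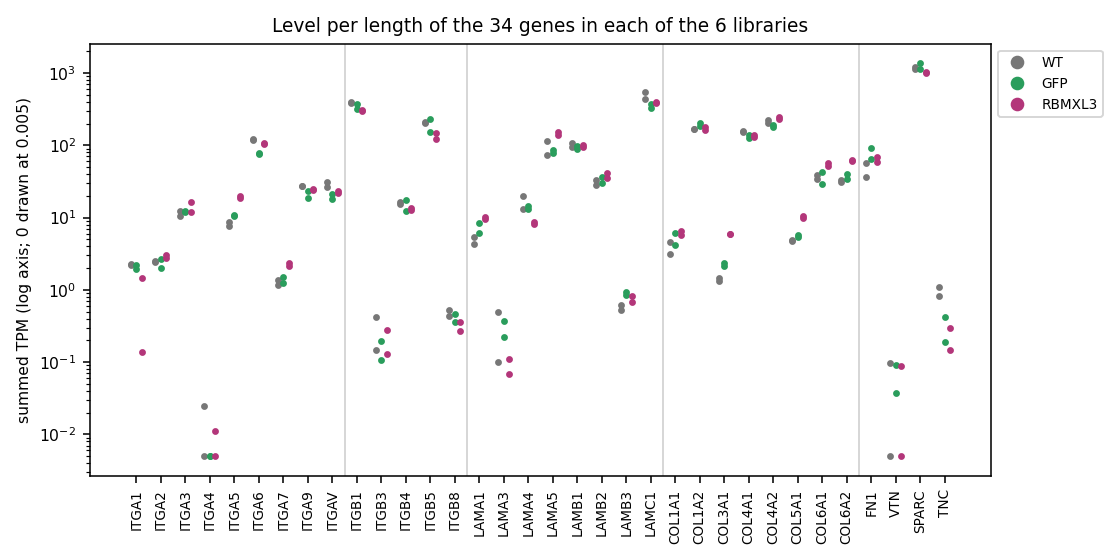
Summed salmon TPM (y axis, log scale, with 0 drawn at 0.005) of the 34 genes, ordered by role along the x axis, 1 point for each of the 6 libraries coloured by group. Grey lines part the alpha subunits, beta subunits, laminins, collagens and glycoproteins. SPARC is highest and ITGA4 and VTN are lowest.

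Transcript usage was tested in the 19 members with at least 2 transcripts of 1 TPM or more. The test was limma's diffSplice, which asks whether the transcripts of a gene change by unequal amounts. Against GFP 2 members were called, COL4A1 and FN1, beside 12% of all 8882 genes tested. Against WT 3 were called, the same 2 and ITGB4, beside 12% again, so the share among members was near the background. Against both controls it was 2 of 19, beside 7.33% of genes. LAMA5 was just short of a call against GFP (diffSplice adjusted p = 0.0516) and was not called against WT (0.199). Against GFP diffSplice called it with transcripts of at least 5 TPM on average (0.027) and with the replicate block (0.028). LAMA5-212, annotated as a retained intron, had 6.6 and 9.44 (WT), 1.54 and 10.4 (GFP) and 29.2 and 36.6 (RBMXL3) TPM, above all controls in RBMXL3. Between GFP and WT 0 members were called by diffSplice, beside 1.72% of genes, and 0 had an unadjusted p under 0.05. The alternative test on transcript shares also called 0, with 1 at an unadjusted p under 0.05.

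COL4A1 has 2 transcripts above that level. COL4A1-201, which encodes the whole chain, had 94 and 87.6 (WT), 72.3 and 76 (GFP) and 120.4 and 127 (RBMXL3) TPM. COL4A1-213, annotated as a retained intron, had 62.5 and 65 (WT), 66.4 and 50.8 (GFP) and 9.08 and 10.7 (RBMXL3). The coding transcript was highest and the other lowest in both RBMXL3 libraries. COL4A1-213 made up 41.2% ± 1.76 (SD, n = 2) of COL4A1 TPM in WT cells and 43.9% ± 5.6 in GFP cells, but 7.39% ± 0.594 in RBMXL3 cells. Its usage changed by -3.17 on the log2 scale against GFP and -3.01 against WT (limma adjusted p = 0.000767 and 0.00108 per transcript), and the gene was called in all 9 other settings. COL4A1-213 covers the 3′ part of the gene in 7 exons. Of its 2476 bases, 2287 are shared with COL4A1-201, so most reads from this part of the gene match both transcripts. The 189 bases at its 5′ end that COL4A1-201 lacks (chr13:110164991-110165179, GRCh38, minus strand, GENCODE 29), which are the intron sequence before a shared exon, read as follows.
COL4A1-213: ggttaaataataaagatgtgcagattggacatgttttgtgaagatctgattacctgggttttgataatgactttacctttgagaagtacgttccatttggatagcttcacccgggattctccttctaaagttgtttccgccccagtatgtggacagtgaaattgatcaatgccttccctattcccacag

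Other collagen members had the same layout. COL4A2-216, annotated as a retained intron, had 84.5 and 81.3 (WT), 77.7 and 75.7 (GFP) and 54.5 and 60.1 (RBMXL3) TPM beside 133 and 118 (WT), 100.2 and 94.6 (GFP) and 174 and 179.6 (RBMXL3) for the coding COL4A2-201. COL1A2-203, a retained intron transcript, had 90.5 and 64.4 (WT), 83.4 and 75.5 (GFP) and 30.2 and 30.6 (RBMXL3), and the coding COL1A2-201 had 77.6 and 100.2 (WT), 122 and 108 (GFP) and 132 and 146 (RBMXL3). COL6A1-204, a processed transcript, had 9.49 and 12.6 (WT), 18 and 4.83 (GFP) and 2.6 and 0 (RBMXL3), and COL6A1-201 had 24.1 and 22.4 (WT), 22.7 and 23.5 (GFP) and 48.9 and 54.9 (RBMXL3). In each pair the coding transcript was above and the other below all 4 controls in both RBMXL3 libraries, but the usage of COL4A2, COL1A2 and COL6A1 was not called against either control with transcripts of 1 TPM or more. With transcripts of at least 5 TPM on average all 3 were called against GFP and WT, with diffSplice adjusted p = 0.00568 and 0.0156 for COL4A2, 0.00847 and 0.00345 for COL1A2 and 0.0307 and 0.0264 for COL6A1. With the replicate block COL1A2 was called against GFP (adjusted p = 0.0468). They were singled out after their values were seen. Of the 10 coding transcripts of collagen members above 1 TPM, 9 were above and 0 below all controls, and of their 7 other transcripts 0 were above and 4 below. Over all annotated genes, 23.4% of 26882 coding transcripts past the same filter were above and 11.6% below, and of 14057 others 18.4% were above and 9.82% below. For the members that are not collagens, 7 of 36 coding transcripts were above and 6 below, and 3 of 31 others were above and 4 below. The 3 others above were all transcripts of LAMA5. Over whole libraries, retained intron transcripts took 3.98% to 4.61% of TPM in the controls and 4.23% and 4.28% in RBMXL3. Processed transcripts, the type of COL6A1-204, took 3.31% to 3.93% in the controls and 3.22% and 3.29% in RBMXL3, below all 4 controls, and the part of that difference in the collagen values was not tested. On summed TPM the ratio of COL4A2 to COL4A1 was 1.41 and 1.33 (WT), 1.38 and 1.4 (GFP) and 1.79 and 1.78 (RBMXL3), highest in RBMXL3. Over coding transcripts the ratio was 1.42 and 1.37 (WT), 1.53 and 1.27 (GFP) and 1.46 and 1.43 (RBMXL3), and the groups overlapped.

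**Figure D4:**
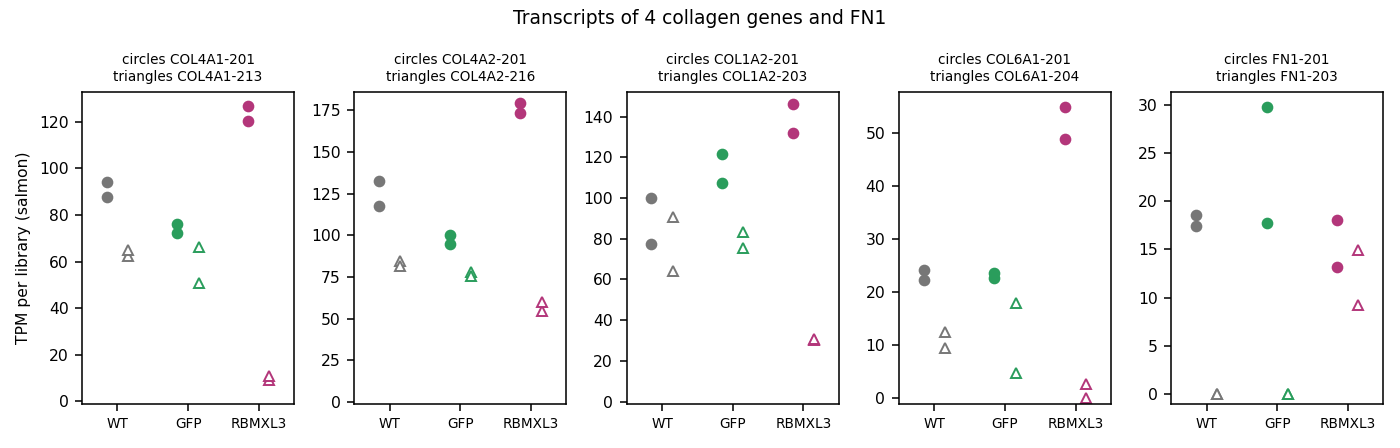
TPM per library (y axis, each panel with its own scale from 0) of 2 transcripts of COL4A1, COL4A2, COL1A2, COL6A1 and FN1 in the 3 groups on the x axis. Circles are the coding transcript ending in 201 and triangles the transcript named in the panel title. In the 4 collagen panels the RBMXL3 circles lie above and the RBMXL3 triangles below all controls, and FN1-203 is listed at 0 in every control.

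FN1 is spliced in many forms, and its variable segment holds binding sites for integrins with the ITGA4 subunit. FN1-203 was listed at 0 TPM in all 4 controls and at 14.9 and 9.22 in the RBMXL3 libraries. FN1-201, the other long form, had 17.4 and 18.6 (WT), 29.8 and 17.7 (GFP) and 13.2 and 18.1 (RBMXL3) and overlapped between groups. Usage of FN1-203 differed by 4.61 against GFP and 3.81 against WT (limma adjusted p = 0.00435 and 0.0212). The call of the gene depended on single libraries. diffSplice gave an adjusted p of 0.00799 against GFP and 0.039 against WT. Without GFP replicate 1 these were 0.143 and 0.0542, and without GFP replicate 2 they were 0.0312 and 0.0542. They were 0.264 and 0.512 without RBMXL3 replicate 1, and 0.122 and 0.261 without RBMXL3 replicate 2. With only transcripts of at least 5 TPM on average, a filter that removes FN1-203, they were 0.834 and 0.217, and with the replicate block 0.0193 and 0.0654. FN1-203 holds all 8708 bases of FN1-201 and 93 coding bases more in the variable segment (chr2:215372016-215372108, GRCh38, minus strand, GENCODE 29), besides 104 non-coding bases at its start. The 93 bases are printed because they set the 2 proteins apart.
FN1-203: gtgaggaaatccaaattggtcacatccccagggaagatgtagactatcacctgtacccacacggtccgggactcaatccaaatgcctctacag

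The stretch is not particular to FN1-203. FN1-213 holds it too and had 14.3 and 15.5 (WT), 23.6 and 22.3 (GFP) and 14.1 and 14.5 (RBMXL3) TPM. In percent of the TPM of all FN1 transcripts that span this place, those holding the stretch made up 42.7 and 30.7 (WT), 29.2 and 39.3 (GFP) and 42.1 and 40.7 (RBMXL3). The groups overlapped, so the 2 RBMXL3 libraries did not stand apart in the stretch as they did in FN1-203.

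ITGB4 usage was called against WT (diffSplice adjusted p = 0.038) and not against GFP (0.0817). ITGB4-209, a processed transcript, had 5.51 and 5.88 (WT), 8.05 and 3.68 (GFP) and 2.53 and 2.35 (RBMXL3) TPM, and the coding ITGB4-206 had 1.03 and 0.394 (WT), 1.14 and 1.02 (GFP) and 1.99 and 2.29 (RBMXL3). The RBMXL3 libraries were below all controls for ITGB4-209 and above them for ITGB4-206, at a low level. The call was lost without WT replicate 1 (adjusted p = 0.109), WT replicate 2 (0.212), RBMXL3 replicate 1 (0.194) or RBMXL3 replicate 2 (0.244), and with the replicate block (0.0673).

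Promoter sequence was examined for the 24 members with an entry in RefSeq's promoter table (GRCh38.p14), taking the 250 bases before each start. Of the 11 members called against both controls 8 had an entry. The windows are printed for COL5A1 and COL6A2, which among the risers with an entry had the largest changes against GFP, and for LAMA4, a gene that fell. Those of COL6A2 (chr21:46097862-46098111, plus strand) and COL5A1 (chr9:134641553-134641802, plus strand) have the GC box (GGGCGG or its reverse complement) and TATA box (TATAAA) in capitals. That of LAMA4 (chr6:112254568-112254817, minus strand) holds none of the motifs searched.
COL6A2: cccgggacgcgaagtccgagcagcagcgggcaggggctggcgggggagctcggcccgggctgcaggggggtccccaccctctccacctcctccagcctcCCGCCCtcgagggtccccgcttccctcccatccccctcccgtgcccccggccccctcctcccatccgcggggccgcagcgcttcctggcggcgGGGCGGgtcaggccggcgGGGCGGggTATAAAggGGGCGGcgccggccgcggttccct
COL5A1: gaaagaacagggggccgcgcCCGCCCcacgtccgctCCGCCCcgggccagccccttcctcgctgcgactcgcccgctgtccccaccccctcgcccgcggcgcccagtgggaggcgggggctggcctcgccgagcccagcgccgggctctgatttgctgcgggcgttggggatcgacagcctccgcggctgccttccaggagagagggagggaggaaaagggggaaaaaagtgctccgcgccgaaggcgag
LAMA4: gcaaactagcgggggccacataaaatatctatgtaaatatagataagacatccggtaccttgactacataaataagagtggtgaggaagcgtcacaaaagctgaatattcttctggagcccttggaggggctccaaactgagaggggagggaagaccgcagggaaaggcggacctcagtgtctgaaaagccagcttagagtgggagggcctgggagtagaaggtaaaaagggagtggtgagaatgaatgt

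The motifs were searched on both strands. COL6A2 holds 4 GC boxes and a TATA box, which begins at -32 relative to the start, and COL5A1 holds 2 GC boxes. A GC box was found in 17 of the 24 member windows, beside 42.3% of 27305 promoter windows of the same length. A CCAAT box (CCAAT) was found in 5, beside 33%, a TATA box in 2, COL6A2 and ITGA6, beside 11.1%, and the AP-1 motif (TGANTCA) in 1, LAMA3, beside 6.6%. Among the 8 windows of members called against both controls, 5 held a GC box, 1 a TATA box and 0 a CCAAT box or an AP-1 motif. These matches describe letters in a window, not bound sites.

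The rest of the pathway was read from 7 lists of further genes. The lists are described by counts of genes called against both controls, beside 6.88% higher and 6.86% lower over all genes. Of 13 tested basement membrane genes outside the set, 6 were higher and 0 lower by limma, edgeR and DESeq2 alike, with 0 lower also at an unadjusted p under 0.05. All 6 are collagen genes (COL4A5, COL4A6, COL7A1, COL15A1, COL17A1 and COL18A1), and of the 7 tested genes that are not collagens, such as NID1, HSPG2 and AGRN, 0 were called against both by limma. Against WT alone NID1 and AGRN were called higher. The median log2 changes of the 13 were 0.23 against GFP and 0.38 against WT. COL7A1, which anchors basement membranes, had 31.3 and 46.1 (WT), 32.3 and 38.1 (GFP) and 97.8 and 102 (RBMXL3) normalised reads. COL4A5 had 481 and 537 (WT), 605 and 501 (GFP) and 984 and 1029 (RBMXL3) and rose by 0.84 ± 0.12 against GFP and 0.95 ± 0.12 against WT (limma adjusted p = 0.000942 and 0.000228). COL4A6, which sits beside COL4A5 in the genome and shares its type IV trimers, had 98.2 and 102 (WT), 138 and 123 (GFP) and 228 and 237 (RBMXL3). In all 3 genes both RBMXL3 libraries were above every control.

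Of 23 tested interstitial and matricellular genes, 6 were higher and 6 lower. LUM, the collagen-binding proteoglycan lumican, had 79.6 and 65.4 (WT), 131 and 179 (GFP) and 425 and 421 (RBMXL3) normalised reads and rose by 1.33 ± 0.16 against GFP and 2.22 ± 0.16 against WT (limma adjusted p = 0.000411 and 3.72e-06). COL9A3, a chain of type IX collagen of cartilage, had 2833 and 2369 (WT), 2088 and 3218 (GFP) and 5859 and 6342 (RBMXL3). FBN2, fibrillin-2, which builds microfibrils, had 563 and 677 (WT), 638 and 389 (GFP) and 193 and 206 (RBMXL3) and fell, with changes of -1.22 ± 0.18 and -1.52 ± 0.18. LUM and COL9A3 were highest and FBN2 lowest in both RBMXL3 libraries.

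Other matrix receptors had 3 higher and 0 lower of 9 tested by limma, edgeR and DESeq2, and 5 and 0 at an unadjusted p under 0.05. BCAM, a receptor of laminins that hold LAMA5, had 7170.5 and 6796 (WT), 7909.9 and 6777 (GFP) and 11039 and 10961 (RBMXL3) normalised reads (changes of 0.59 ± 0.10 and 0.65 ± 0.10, limma adjusted p = 0.0028 and 0.000852). The syndecans SDC1 and SDC4, heparan sulphate co-receptors, rose by 0.41 ± 0.13 and 0.33 ± 0.10 against GFP and 0.87 ± 0.13 and 0.59 ± 0.10 against WT. Among the 7 tested of 16 other integrins and laminins, 2 rose and 0 fell by limma (2 and 1 at an unadjusted p under 0.05, 2 and 0 by edgeR, 1 and 0 by DESeq2): ITGA2B (0.78 ± 0.15 against GFP) and LAMC3 (0.43 ± 0.13). Adaptors and kinases of integrin adhesions had 3 higher and 3 lower of 27 tested. LIMS1, which binds ILK, rose (0.80 ± 0.11 and 0.48 ± 0.11), while PARVA, another partner of ILK, fell (-0.61 ± 0.11 and -0.85 ± 0.11). ITGB1BP1, which binds the tail of ITGB1, fell, with changes of -0.57 ± 0.13 and -0.67 ± 0.13.

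Collagen processing enzymes and chaperones had 1 higher and 0 lower of 18 tested by limma, edgeR and DESeq2, and 1 and 1 at an unadjusted p under 0.05, near the share of all genes. The 1 was PCOLCE, an enhancer of procollagen cleavage, at 44 and 65.4 (WT), 80.4 and 63.6 (GFP) and 142 and 128 (RBMXL3) normalised reads. Its changes were 0.73 ± 0.18 and 1.03 ± 0.18. Matrix proteases and their inhibitors had 2 higher and 2 lower of 17 tested. The protease ADAMTS1 fell (-0.92 ± 0.10 and -0.97 ± 0.10). PLAU, urokinase, rose (0.53 ± 0.12 and 1.20 ± 0.12), and so did MMP15 (0.53 ± 0.095 and 0.51 ± 0.095), a membrane-bound metalloprotease.

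**Figure D5:**
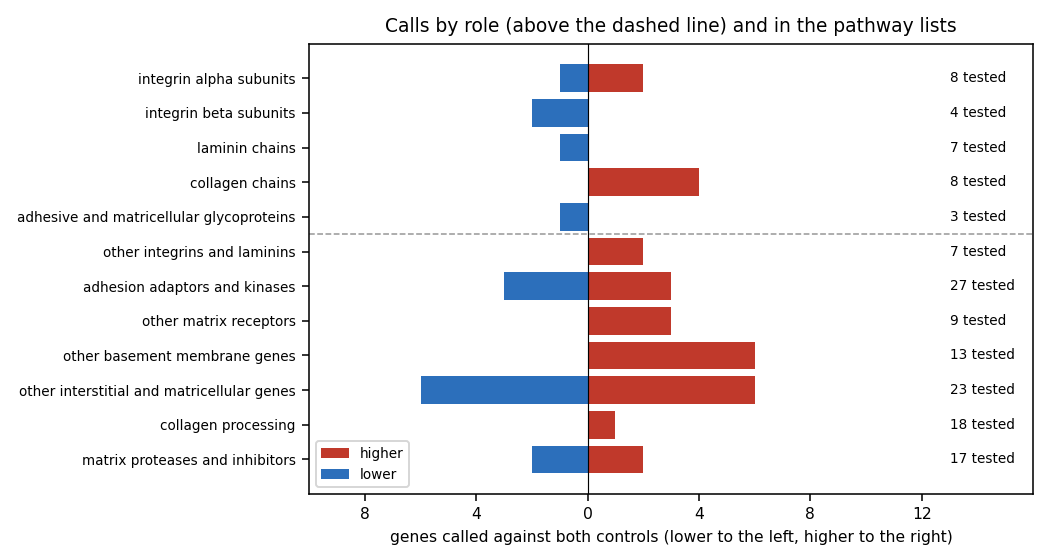
Number of genes called by limma against both controls (x axis, lower to the left of 0 and higher to the right) in each role of the 34 genes, above the dashed line, and in each pathway list, below it, with the number tested at the right. The collagen chains and the other basement membrane genes, where the called genes are collagens too, have bars to the right only. So do the other matrix receptors, the other integrins and laminins and collagen processing, where no called gene is a collagen.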

How the data were processed

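Polyadenylated RNA of 6 TCam-2 libraries, 2 in each of 3 groups, was sequenced from stranded mRNA-kit libraries, per the labels' protocols. The submitters' processing notes name Trim Galore 0.6.10, STAR 2.7.11a, DESeq2, Salmon 1.10.2 and the build GRCh38. The read counter, the annotation and the use of strand in counting are not given in the sources used here. The deposited gene table holds a normalised signal: 100% of nonzero values were whole multiples of 1 step per library (tolerance 0.01 reads), so each is a read count over a size factor set by the authors. The deposited transcript table holds TPM from salmon for 251955 transcripts, of which 80.0% had a gene in GENCODE 29 (GRCh38). TPM keeps no depth.

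The 34 genes, their grouping and the pathway lists were chosen with earlier results of these data known. Gene values were divided by a common factor (23.9) so that their mean column total equals that of CPM, and limma 3.58.1 (R 4.3.3) with an intensity trend was run on log2(value + 1) in one fit of all 6 libraries. Genes that reached a value of 1 in fewer than 2 libraries were dropped, which left 14292. Tests were two-sided with Benjamini-Hochberg adjustment over all of them. Fold changes on this scale understate changes of low genes. Transcript usage was tested with diffSplice on log2(TPM + 1) of 36184 transcripts of 8882 genes. Alternatives were edgeR 4.0.16 and DESeq2 1.42.0 on the recovered reads, another pseudocount (0.1), other filters, quantile normalization, summed TPM, fits of 2 groups only, a replicate block and each library left out. Every nonzero value came out whole, and on those reads edgeR called 12, 17 and 6 members against GFP, against WT and between the controls. The scripts were tested on simulated data. Named list genes are up to 3 per list called in the same direction against both controls, by the larger of the smaller changes. Members called in at least 1 comparison are named with values in every library. A count of 0 allows up to 3 reads, a limit for counting error alone, as the labels name no molecular identifiers that would tell molecules from copies. The labels do not say whether same-numbered libraries were prepared together, so the main test fitted no pairing. The correlations of same-numbered deviations were -0.16, 0.034 and -0.094, which with 2 libraries a group cannot settle the question. The number of table columns that belong to no sample was 0. Sequences are from RefSeq (GRCh38.p14) and GENCODE 29.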

Additional observations from a re-analysis of the deposited data

How the results depend on the processing

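None of the 36 called changes of single members reversed its sign in the 542 values from other settings. Of these, 418 kept their side of the threshold and 124 did not. The count called moved by more than 1.5 times from 13 against GFP, 17 against WT, 6 between the controls and 11 against both as follows. Without the filter on low values it was 5, 11, 0 and 5, and on summed TPM 5, 6, 0 and 4, where all genes shifted by 0.13 at the median against GFP. Fitting only the 2 groups compared gave 2 between the controls. Leaving out 1 library gave 5 to 19 against GFP, 11 to 22 against WT, 0 to 10 between the controls and 5 to 14 against both. The lowest counts against RBMXL3 came without an RBMXL3 library. With the replicate block the counts were 10, 17, 3 and 10. Whether same-numbered libraries belong together is not known, so no conclusion is drawn from calls lost or kept under the block. Same-numbered WT and GFP libraries deviated apart (-0.16), and a block with crossed numbers, chosen after seeing the data, gave 11 between the controls in place of 6. Members with usage called were 2 against GFP, 3 against WT and 0 between the controls. They were 4, 1 and 0 with the replicate block, 5, 4 and 0 for transcripts of at least 5 TPM, and 1 to 5, 1 to 2 and 0 without 1 library. COL4A1 was called in each of these. Depth limits ITGA4 and VTN, which had at most 3 reads in any library, and 2 libraries a group leave little precision for each gene.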

Other observations

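Collagen genes outside the set were looked up by symbol after the values above had been seen. Of 36 such genes 22 were tested. In RBMXL3 13 were higher and 2 lower than in GFP, beside 10.5% and 10.4% of all genes. Against WT 11 were higher and 3 lower, beside 14.6% and 15.3%. Against both controls it was 10 and 2, beside 6.88% and 6.86%. These counts overlap those of the lists above: COL9A3 and the 6 collagen genes of the basement membrane list are among the 10. The lists also hold COL5A2 and COL14A1. The median log2 change of the 22 was 0.57 against GFP and 0.44 against WT. Among those higher was COL23A1, a transmembrane collagen, at 6654 and 5832 (WT), 5542 and 6604 (GFP) and 10403 and 10874 (RBMXL3) normalised reads. Also higher was COL17A1, a transmembrane collagen of hemidesmosomes, at 1615 and 1434 (WT), 1991 and 1768 (GFP) and 2906 and 2888 (RBMXL3). COL5A2, which joins COL5A1 in type V trimers, had 202 and 244 (WT), 344 and 319.96 (GFP) and 516 and 459.8 (RBMXL3). The 2 lower were COL14A1, a fibril-associated collagen, at 946 and 799.5 (WT), 551 and 478 (GFP) and 331 and 309 (RBMXL3), and COL16A1 at 69.4 and 57 (WT), 62.8 and 61.4 (GFP) and 24.5 and 37.4 (RBMXL3). The RBMXL3 libraries lay outside all controls for each of these 5 genes.

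Type I collagen trimers are known to hold more of the COL1A1 chain than of COL1A2, yet COL1A2 was the far more abundant RNA. Over coding transcripts the ratio of COL1A2 to COL1A1 TPM was 25.1 and 24.1 (WT), 20.8 and 26 (GFP) and 23.8 and 22.2 (RBMXL3), and the groups overlapped. No explanation was tested.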
